A study of Mus musculus with 18 samples.

Results

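B16 is a mouse melanoma cell line, and 3 of its 9 RNA sequencing libraries carry the replicate number 2. They were set against the 6 B16 libraries numbered 1 or 3, out of 18 libraries in the whole series. The number 2 libraries came from cells with the guide RNA sgNcor1-1 (labelled Ncor1 knockout), with sgNcor1-2 (also labelled Ncor1 knockout) and with the control guide sgCtrl (labelled WT). Each of these 3 guide groups also has 1 library numbered 1 and 1 numbered 3, so that number 2 can be compared with its own guide group 3 times over. The other 9 libraries of the series are the same design in the mouse liver cancer line Hepa1-6. NCOR1, the targeted protein, is a corepressor that brings histone deacetylase 3 to genes bound by nuclear receptors. The labels give the number and no culture date, passage, RNA batch or sequencing batch, and nothing says that the 3 libraries of a guide came from separate cultures. P-values below thus speak only for variation among these libraries, part of which may be technical. No source used here says whether a guide group is 1 clone or a pool of edited cells.

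The members were chosen by measured values: number 2 was selected on the expression levels of the 9 B16 libraries, in which libraries of that number stood apart from the rest. The difference of number 2 from 1 and 3 in B16 is thus a description, given as levels and as log2 differences with standard errors (SE), with no test. Tests are given for other contrasts: whether the difference had the same size in knockout and control cells, whether it recurred in Hepa1-6, and how numbers 1 and 3 differed from each other. Levels are in CPM, counts scaled to a common library total, with library sizes scaled by trimmed means. A gene is called separated where, in each of the 3 guide groups, the number 2 library lay beyond both other libraries on the same side. A library is named by its guide and number, such as sgCtrl 2.

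As background, B16 cells keep much of the programme of pigment cells. The transcription factor MITF switches on genes for melanin enzymes, for ion transporters of the melanosome and for the machinery that moves melanosomes, and the melanocortin 1 receptor feeds into it through cyclic AMP. Growing cells build ribosomes in the nucleolus, a programme driven by MYC and tied to nutrient supply. The factor ATF4 responds to scarce amino acids and other stresses by inducing amino acid transporters, serine and glycine synthesis enzymes and tRNA synthetases. Cultured cells also keep circadian oscillators, in which CLOCK and BMAL1 drive Per and Nr1d genes and the output genes Dbp and Tef, with phases that depend on when the culture was last fed or passaged.

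By list median, the number 2 libraries had higher levels of pigment cell, ribosome biogenesis, amino acid response and G1/S genes. This held against the mean of numbers 1 and 3 in each guide group, with the G1/S median at 0.16 in sgNcor1-1. Not every member of these lists was separated. Lower in number 2 were circadian output genes, quiescence genes such as Cdkn1b and, by list median, cholesterol synthesis genes. Of 16 NF-kB targets and chemokines 4 were separated downwards, and 25.0% is near the 19.1% of all genes tested. The calcium-binding protein genes S100a4 and S100a6 were lower too. Of the 12347 genes tested, 2513 were separated upwards (20.4%) and 2362 downwards (19.1%), which makes 4875 either way (39.5%). With a fitted log2 difference of at least 1 in size as well, 583 genes were higher (4.72%) and 486 lower (3.94%). The median over all genes tested was -0.01, a value that the scaling of library sizes holds near 0. Genes next to that limit of 1 were Trp53rka (SE 0.43) on the higher and Pja2 (SE 0.21) on the lower side just inside it, and Prkcz and Sh3d19 on the higher side just outside it. As a description only, edgeR's quasi-likelihood fit put 764 genes higher (6.19%) and 606 lower (4.91%) at an adjusted p under 0.05, 1370 in all. Leaving out any 1 of the 9 libraries moved that number by over 1.5 times, to between 0 without sgNcor1-2 2 and 3025 without sgNcor1-1 1, and nothing is read from it. The number of separated genes lay between 5154 and 7090 when 1 library was left out, where the rule asks for fewer orderings.

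Depth overlapped between the numbers. The number 2 libraries held 16374223 to 17835699 counts, against 15663964 to 25263744 in the libraries numbered 1 or 3, and 14478 to 14655 genes had at least 1 count in them, against 13982 to 14986. sgNcor1-1 1 stood apart from every other B16 library, with a scaling factor of 0.79 where the others had 0.98 to 1.09, and values without it stand beside each result that it moved by over 1.5 times and beside some others. Ncor1 itself read 239 CPM in sgNcor1-1 2, 236 CPM in sgNcor1-2 2 and 279 CPM in sgCtrl 2, against 296 to 367 CPM in the 6 libraries numbered 1 or 3. Its mRNA was thus lower in number 2 within every guide group, and its level did not part the knockout libraries from the control ones. A CRISPR edit that breaks the reading frame need not lower the mRNA.

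Once the mean of each guide group was removed, the first component held 55.0% of the variance and the second 24.2%. Number 2 libraries lay at 51.3 (sgNcor1-1), 37.4 (sgNcor1-2) and 26.8 (sgCtrl) on the first, number 3 at 28.8, 3.97 and 3.16 in the same order, and number 1 at -80.1, -41.3 and -29.9. Within each guide group number 2 was thus at one end of the first component and number 1 at the other. The second component parted number 2, at 12.7 to 38.5, from number 3, at -36.1 to -29.5. The difference of number 2 from the mean of 1 and 3 was alike in the 3 guide groups: across 12347 genes Pearson's r was 0.65 between sgNcor1-1 and sgCtrl, 0.74 between sgNcor1-2 and sgCtrl and 0.61 between both Ncor1 guides. No library is shared by 2 guide groups, but genes are not independent replicates and the number was chosen for this likeness. Deviations from the guide means correlated across guides at 0.555 to 0.619 for number 1 and at 0.501 to 0.635 for number 3. Likeness across guides was thus not particular to number 2.

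**Figure D1:**
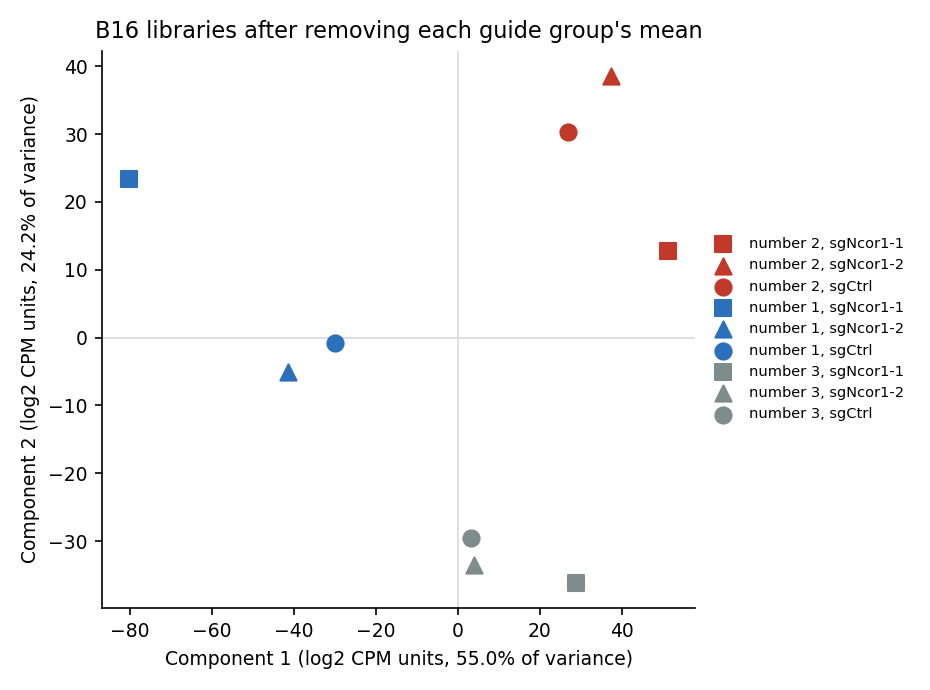
First component (x axis, 55.0% of the variance) and second component (y axis, 24.2%) of the 9 B16 libraries, in log2 CPM units, after the mean of each guide group was removed. Colour marks the number (2 red, 1 blue, 3 grey) and shape the guide; the 3 number 2 libraries sit at 26.8 to 51.3 on the first component and above 0 on the second.

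**Figure D2:**
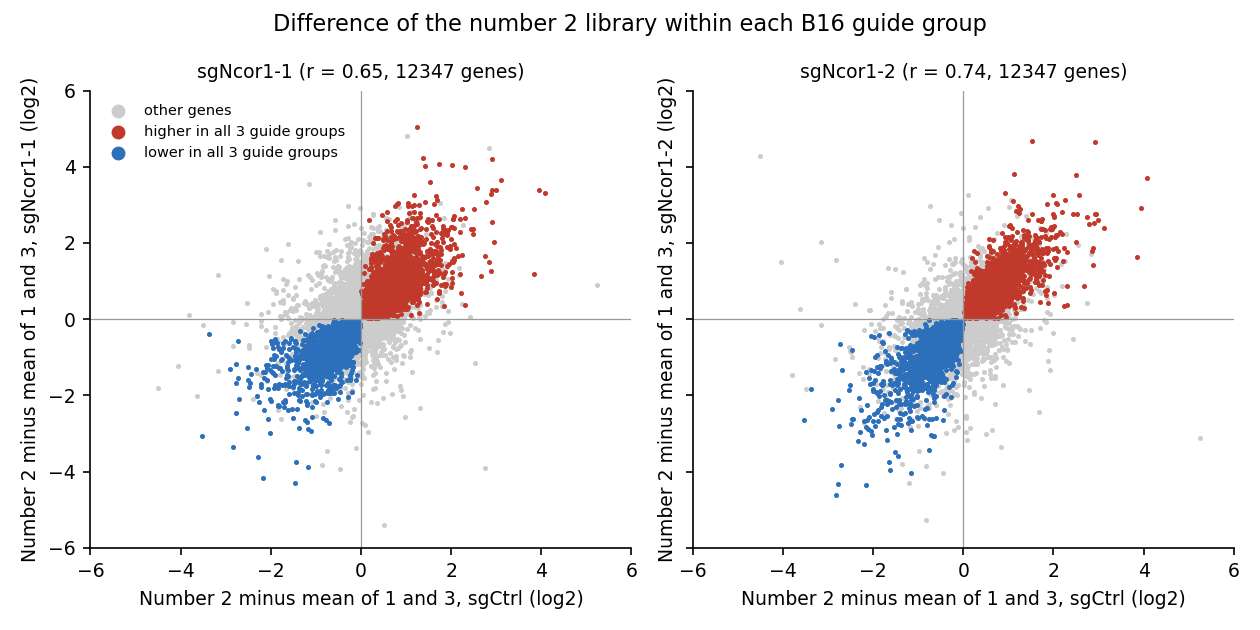
Log2 difference of number 2 from the mean of 1 and 3 in sgNcor1-1 (left, y axis) and sgNcor1-2 (right, y axis) against the same difference in sgCtrl (x axis), 1 point for each of 12347 genes. Red genes were higher and blue genes lower in all 3 guide groups; Pearson's r was 0.65 on the left and 0.74 on the right.

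Promoters are shown for genes of 3 of the higher groups, because members of each moved together and each group has a known binding motif. They run from 250 bases before to 50 bases after the transcription start and come from RefSeq, build GRCm38.p6. Motifs were searched on both strands, and none of the 3 contains another. Nop56, Nolc1, Dkc1 and Nop2 encode nucleolar proteins of ribosome assembly and RNA modification. They have the largest differences in that list among members with a promoter in the table. Their motif in capitals is the E-box CACGTG, bound by MYC among other factors. Trpm1 and Mlph are pigment cell genes, and the motif is the M-box core TCATGTG, bound by MITF. Shmt2 and Slc1a4 are amino acid response genes, and the motif is the C/EBP-ATF composite TGATGNAA, bound by ATF4 with its partners. For Slc1a4 the capitals spell the reverse strand of it.
Nop56 (chr2:130274162-130274461, plus strand): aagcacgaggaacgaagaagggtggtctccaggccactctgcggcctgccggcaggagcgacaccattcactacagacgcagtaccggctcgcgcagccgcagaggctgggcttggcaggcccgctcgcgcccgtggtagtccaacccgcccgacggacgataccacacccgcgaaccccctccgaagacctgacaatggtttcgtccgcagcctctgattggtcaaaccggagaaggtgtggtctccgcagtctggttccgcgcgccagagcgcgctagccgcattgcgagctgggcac
Nolc1 (chr19:46075597-46075896, plus strand): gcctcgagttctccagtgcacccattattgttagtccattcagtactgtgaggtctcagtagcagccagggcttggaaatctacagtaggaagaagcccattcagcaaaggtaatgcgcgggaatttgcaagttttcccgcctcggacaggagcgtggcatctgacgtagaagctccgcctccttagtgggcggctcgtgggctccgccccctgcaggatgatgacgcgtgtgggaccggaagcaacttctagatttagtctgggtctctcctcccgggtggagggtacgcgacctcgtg
Dkc1 (chrX:75095604-75095903, plus strand): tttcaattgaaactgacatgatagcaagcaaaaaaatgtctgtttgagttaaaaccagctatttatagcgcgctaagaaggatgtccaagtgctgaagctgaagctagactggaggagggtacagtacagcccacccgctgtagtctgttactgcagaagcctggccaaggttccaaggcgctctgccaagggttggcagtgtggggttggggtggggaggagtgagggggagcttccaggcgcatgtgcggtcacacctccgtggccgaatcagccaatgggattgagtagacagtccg
Nop2 (chr6:125131633-125131932, plus strand): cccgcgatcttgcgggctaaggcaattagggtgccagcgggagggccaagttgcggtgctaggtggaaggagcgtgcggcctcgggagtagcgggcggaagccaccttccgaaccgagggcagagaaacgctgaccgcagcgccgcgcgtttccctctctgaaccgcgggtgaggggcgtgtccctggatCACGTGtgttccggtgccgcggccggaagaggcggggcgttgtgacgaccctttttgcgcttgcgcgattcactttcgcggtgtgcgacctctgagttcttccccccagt
Trpm1 (chr7:64153585-64153884, plus strand): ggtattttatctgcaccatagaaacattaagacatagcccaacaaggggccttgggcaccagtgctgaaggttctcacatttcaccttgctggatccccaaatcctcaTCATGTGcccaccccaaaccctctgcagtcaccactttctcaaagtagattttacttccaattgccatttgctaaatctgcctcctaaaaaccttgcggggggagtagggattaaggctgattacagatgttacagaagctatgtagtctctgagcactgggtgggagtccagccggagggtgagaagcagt
Mlph (chr1:90914850-90915149, plus strand): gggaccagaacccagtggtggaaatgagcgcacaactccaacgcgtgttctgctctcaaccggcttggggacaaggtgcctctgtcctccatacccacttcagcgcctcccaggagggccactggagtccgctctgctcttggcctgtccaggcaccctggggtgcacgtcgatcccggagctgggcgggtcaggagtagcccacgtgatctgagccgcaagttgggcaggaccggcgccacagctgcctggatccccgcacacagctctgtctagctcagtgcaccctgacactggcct
Shmt2 (chr10:127522395-127522694, minus strand): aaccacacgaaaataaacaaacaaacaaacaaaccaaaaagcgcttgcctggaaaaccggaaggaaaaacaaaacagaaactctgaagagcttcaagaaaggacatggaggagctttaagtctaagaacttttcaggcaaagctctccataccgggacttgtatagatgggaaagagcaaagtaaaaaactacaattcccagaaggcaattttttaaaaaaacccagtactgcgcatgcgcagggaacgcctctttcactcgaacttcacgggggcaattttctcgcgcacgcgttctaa
Slc1a4 (chr11:20332664-20332963, minus strand): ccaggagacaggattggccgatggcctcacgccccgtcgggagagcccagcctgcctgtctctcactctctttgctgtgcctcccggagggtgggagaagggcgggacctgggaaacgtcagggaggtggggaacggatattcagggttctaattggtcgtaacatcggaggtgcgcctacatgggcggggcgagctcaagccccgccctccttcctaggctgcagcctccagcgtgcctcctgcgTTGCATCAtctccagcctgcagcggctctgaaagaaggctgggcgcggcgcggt

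Nop2 held the E-box starting 60 bases before its start, at offset -60, Trpm1 the M-box at -142 and Slc1a4 the composite site at -4. The windows of Nop56, Nolc1, Dkc1, Mlph and Shmt2 did not hold the motif searched for in their own group. The Mlph window held 1 match to the E-box, which was searched for in the ribosome biogenesis group and is left in lower case here. Trpm1 has 2 starts in the reference table, of which 1 is shown. Shares of genes count a gene once, where any of its promoters held the letters. Among genes with a promoter in that table, the E-box was in 4 of 22 in the ribosome biogenesis list (18.2%). It was in 11.9% of 9790 genes tested in B16 and 7.15% of all 32851 promoters. The same letters were in 4 of 14 circadian clock genes (28.6%), a list with lower levels in number 2. The M-box was in 6 of 15 pigment cell genes (40.0%), against 2.54% of tested genes and 3.77% of all promoters. The composite site was in 11 of 31 amino acid response genes (35.5%), against 2.70% and 3.97%. Of the G1/S genes, 8 of 27 (29.6%) held the E2F letters TTTCGCG, against 2.09% and 0.85%. Among separated members with a promoter, the M-box was in 4 of 10 and the composite site in 8 of 22. The E2F letters were in 3 of 10, and the E-box in 4 of 20 of the ribosome biogenesis list. Each share was near that of its whole list. Whether a motif parts separated members from the rest was not tested. A match is a description of these letters and not a measured binding site.

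The pigment cell genes gave the largest median of the programme and identity lists. Of 22 measured members of the 24 on the list, 14 were separated upwards (63.6%, against 20.4% of all genes tested) and 0 downwards. Their median log2 difference was 1.33, against -0.01 over all genes tested. The median was 1.29 in sgNcor1-1, 1.52 in sgNcor1-2 and 1.11 in sgCtrl. Trpm1, an ion channel gene that carries a MITF-driven microRNA in its intron, had 54.7 CPM in sgNcor1-1 2, 119 CPM in sgNcor1-2 2 and 18.6 CPM in sgCtrl 2, against 1.05 to 11.7 CPM (median 3.16) in numbers 1 and 3. That is a log2 difference of 3.54 (SE 0.68), and each number 2 library was above all 6 others. Mlph, the melanophilin that links melanosomes to myosin, had 86.1, 153 and 104 CPM in the same order, against 8.14 to 28.5 CPM (median 17.1), a difference of 2.68 (SE 0.23). Oca2, a melanosome membrane protein gene, was low in all libraries, at 5.83, 3.00 and 2.89 CPM against 0.27 to 1.61 CPM (median 0.75).

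Mc1r, the receptor for melanocyte-stimulating hormone, had 152 CPM in sgNcor1-1 2, 186 CPM in sgNcor1-2 2 and 162 CPM in sgCtrl 2, against 17.2 to 51.0 CPM (median 32.5) in numbers 1 and 3, a difference of 2.29 (SE 0.25). Its groups did not overlap. Slc45a2, a melanosome transporter gene outside the 4 that the naming rule took from this list but within the rule for the largest differences, had 491, 658 and 423 CPM against 72.2 to 136 CPM (median 113), a difference of 2.27 (SE 0.19). Other members named here were chosen after their values were seen. Mitf had 228 CPM in sgNcor1-1 2, 432 CPM in sgNcor1-2 2 and 292 CPM in sgCtrl 2, against 72.0 to 145 CPM (median 128), a difference of 1.35 (SE 0.17). The abundant melanosome genes Pmel and Tyrp1 were not separated: Tyrp1 read 3364, 5322 and 4623 CPM in number 2, against 926 to 4978 CPM (median 2634).

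Those abundant genes were low in number 3 against both other numbers. Tyrp1 read 926 to 1408 CPM in number 3, 3364 to 5322 CPM in number 2 and 3860 to 4978 CPM in number 1. In edgeR's quasi-likelihood test of number 1 minus 3, which called 557 genes higher (4.51%) and 399 lower (3.23%), Tyrp1 differed by 1.99 with an adjusted p of 0.005 and Pmel by 1.17 with an adjusted p of 0.020. Trpm1 went the other way, at -2.46 (adjusted p = 0.015). The count of genes called between 1 and 3 depended on single libraries: it lay between 8 without sgNcor1-2 3 and 1500 without sgNcor1-1 1, and 7 of the 9 single omissions moved it by over 1.5 times. Summed over the 24 listed genes, pigment cell mRNA came to 18069 to 26069 CPM in number 2 and 7923 to 22611 CPM (median 12782) in numbers 1 and 3, so the sums overlapped. In Hepa1-6 the same sum was 385 to 715 CPM, far below any B16 library.

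**Figure D3:**
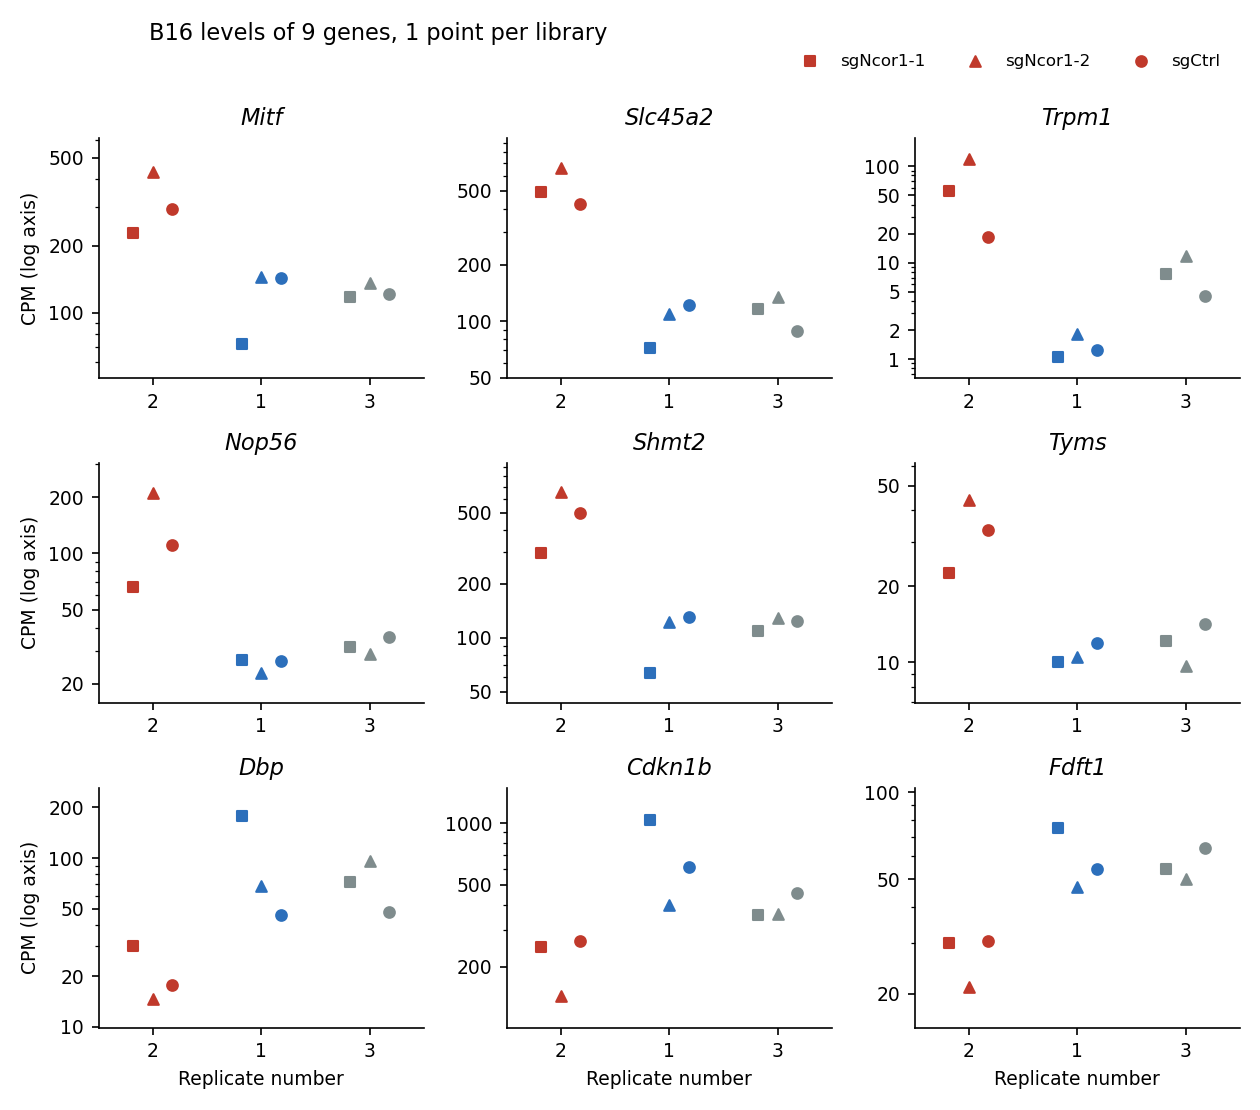
CPM (log axis) of 9 genes in the 9 B16 libraries, by replicate number on the x axis with number 2 first. Each point is 1 library and its shape is the guide; the upper 6 genes were higher and the lower 3 genes lower in every number 2 library than in both other libraries of its guide.

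Ribosome biogenesis had the largest share of separated members. Of 28 genes listed and measured, 23 were separated upwards (82.1%, against 20.4% of all genes tested) and 1 downwards. Their median was 1.20. The size differed by guide group, with medians of 0.68 in sgNcor1-1, 1.72 in sgNcor1-2 and 1.14 in sgCtrl. Nop56, a core protein of box C/D small nucleolar particles, had 66.1 CPM in sgNcor1-1 2, 210 CPM in sgNcor1-2 2 and 111 CPM in sgCtrl 2, against 23.0 to 35.6 CPM (median 27.7) in numbers 1 and 3, a difference of 2.08 (SE 0.30). The promoter of Nop56 is the first of those printed above. Srm, spermidine synthase, had 24.5, 55.8 and 44.1 CPM against 5.71 to 16.1 CPM (median 11.2), a difference of 1.91 (SE 0.34). Nolc1, a nucleolar chaperone gene, differed by 1.72 (SE 0.30) and Bop1, which acts in large subunit assembly, by 1.69 (SE 0.34). In each of these 4 genes sgNcor1-2 2 was the highest library and sgNcor1-1 2 the lowest of the 3 numbered 2, still above all 6 others.

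Myc itself was not separated. It had 52.7 CPM in sgNcor1-1 2, 81.7 CPM in sgNcor1-2 2 and 73.9 CPM in sgCtrl 2, against 26.1 to 198 CPM (median 37.6), with the highest value in sgNcor1-1 1. Polr1c, a subunit of RNA polymerases I and III, was the member separated downwards, at -0.31 (SE 0.18). The proteins of the finished ribosome did not share the direction: of 48 cytosolic ribosomal protein genes 0 were separated upwards and 10 downwards (20.8%, against 19.1% of all genes tested), with a median of -0.15. Both genes and this list were chosen after their values were seen.

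Of 37 measured amino acid response genes out of 41 listed, 27 were separated upwards (73.0%, against 20.4% of all genes tested) and 0 downwards. Their median was 0.91 (0.66 in sgNcor1-1, 1.21 in sgNcor1-2 and 0.83 in sgCtrl). Shmt2, the mitochondrial enzyme that turns serine into glycine, had 298 CPM in sgNcor1-1 2, 652 CPM in sgNcor1-2 2 and 501 CPM in sgCtrl 2, against 63.1 to 130 CPM (median 123) in numbers 1 and 3, a difference of 2.06 (SE 0.18). Slc1a4, a transporter of neutral amino acids, had 42.1, 92.5 and 58.7 CPM against 3.87 to 33.2 CPM (median 19.7), a difference of 1.75 (SE 0.41). Chac1, which breaks down glutathione, had 9.02, 44.3 and 19.5 CPM against 2.83 to 10.8 CPM (median 6.82), so that sgNcor1-1 2 lay within the range of the others although above both of its own guide. Its difference of 1.61 was 0.95 without sgNcor1-2 2. Slc7a1, a transporter of arginine and lysine, had 236, 485 and 327 CPM against 92.7 to 134 CPM (median 110), a difference of 1.59 (SE 0.21). Further transporters, serine synthesis enzymes and tRNA synthetases were among the 27, all at smaller differences.

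Not all genes of the response were separated. Ddit3, the stress factor CHOP, had 86.7 CPM in sgNcor1-1 2, 145 CPM in sgNcor1-2 2 and 103 CPM in sgCtrl 2, against 61.4 to 748 CPM (median 111) in numbers 1 and 3, and was not separated. Ppp1r15a, the phosphatase subunit GADD34, was not separated either (0.22, SE 0.70). Atf4 mRNA differed by 0.74 (SE 0.40) and was not separated, with 285, 531 and 413 CPM against 152 to 520 CPM (median 207). These 3 genes were chosen after their values were seen. Of 23 chaperone genes of the endoplasmic reticulum, 1 was separated upwards (4.35%, against 20.4% of all genes tested), with a median of 0.07.

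Of 33 G1/S and replication genes, 14 were separated upwards (42.4%, against 20.4% of all genes tested) and 0 downwards. Their median was 0.69, and 32 of the 33 had a difference above 0. The median was uneven across guides, at 0.16 in sgNcor1-1, 1.16 in sgNcor1-2 and 0.54 in sgCtrl, and came to 0.34 without sgNcor1-2 2. Tyms, thymidylate synthase, had 22.7 CPM in sgNcor1-1 2, 44.0 CPM in sgNcor1-2 2 and 33.5 CPM in sgCtrl 2, against 9.70 to 14.1 CPM (median 11.2), a difference of 1.53 (SE 0.21). Chaf1b, of the chromatin assembly factor, differed by 1.38 (SE 0.29), Fen1, the flap nuclease, by 1.29 (SE 0.20) and Orc1, of the origin recognition complex, by 1.28 (SE 0.32). Without sgNcor1-2 2 Chaf1b was at 0.92 and Orc1 at 0.77. Genes of the later phases did not share this, with a median of 0.04 over 36 G2/M genes. Of these 2 were separated upwards (5.56%) and 1 downwards (2.78%), against 20.4% and 19.1% of all genes tested. In number 1 against 3 edgeR called 14 of those 36 G2/M genes and 2 of the 33 G1/S genes higher in number 1. Over all genes tested that share was 4.51%.

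Among 7 measured Wnt targets of 13 listed, 2 were separated upwards, and 28.6% is near the 20.4% of all genes tested. The median of 0.44 came to 0.81 against number 1 alone, 0.14 against number 3 alone, 0.29 without sgNcor1-2 1 and 0.26 without sgNcor1-2 2. Ccnd1, cyclin D1, which drives entry into the cell cycle, had 62.2 CPM in sgNcor1-1 2, 74.7 CPM in sgNcor1-2 2 and 73.4 CPM in sgCtrl 2, against 18.0 to 25.0 CPM (median 22.0) in numbers 1 and 3. Its difference of 1.68 (SE 0.15) came with no overlap between the groups. Axin2, a feedback inhibitor of the pathway, differed by 0.33 (SE 0.15).

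**Figure D4:**
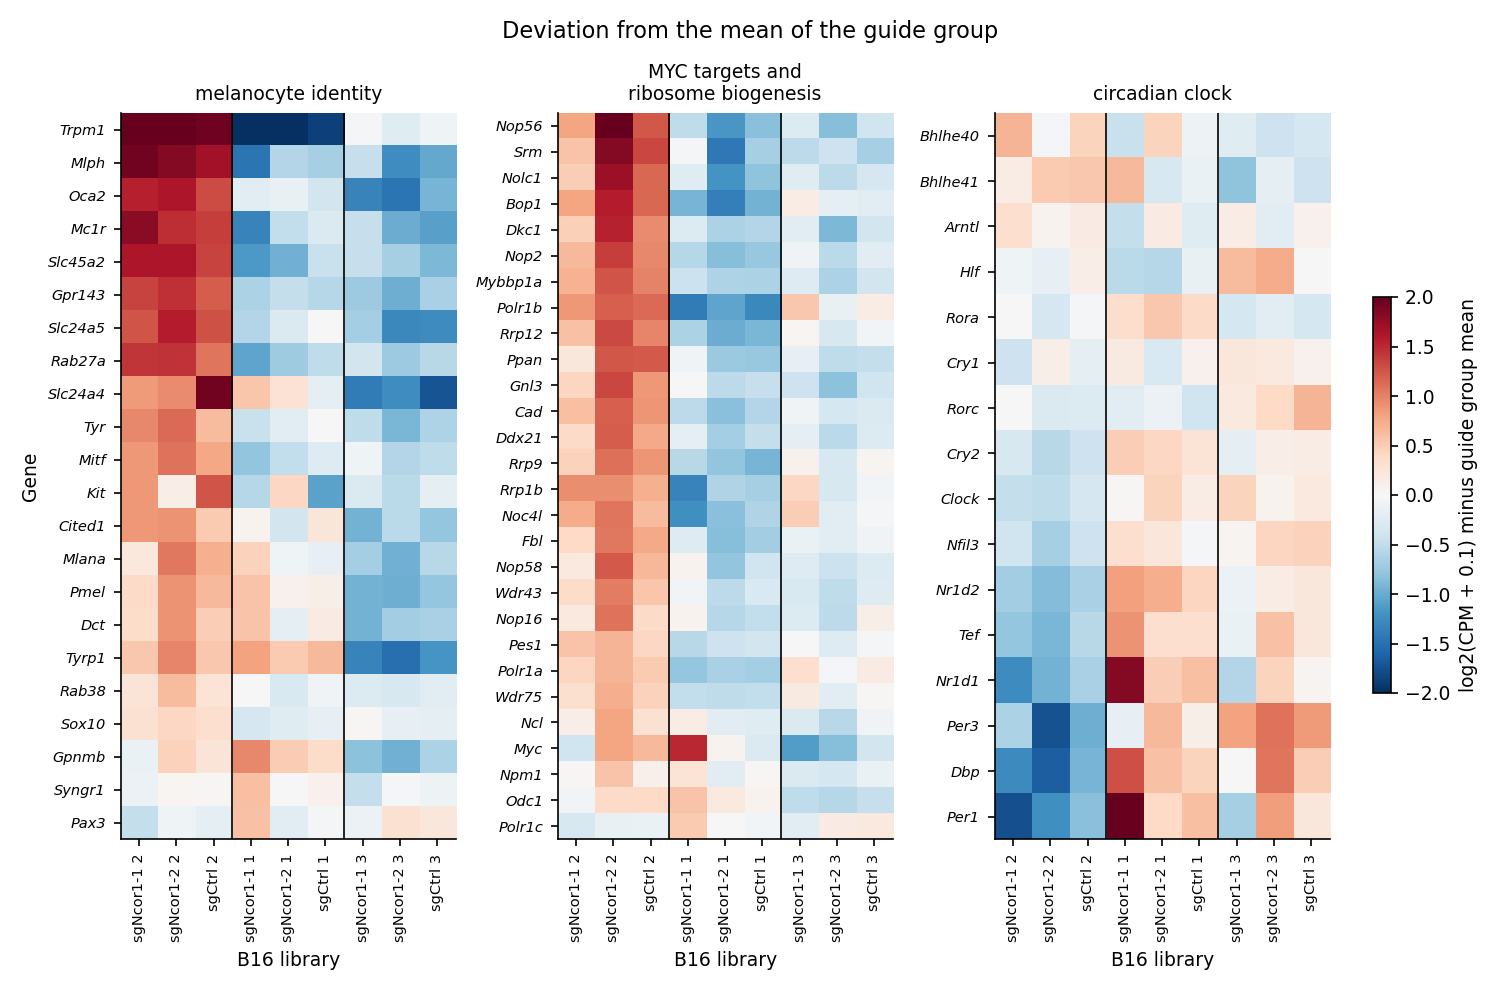
Deviation of each B16 library from the mean of its guide group, in log2(CPM + 0.1), for the measured genes (rows) of the pigment cell, ribosome biogenesis and circadian clock lists; colours are capped at 2 either way. Number 2 libraries are the first 3 columns of each panel, and they are red over most of the first and second panels and blue over the lower rows of the third.

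Circadian clock genes were lower. Of 16 measured of 19 listed, 9 were separated downwards (56.25%, against 19.1% of all genes tested) and 0 upwards. Their median was -0.66 (-0.60 in sgNcor1-1, -0.80 in sgNcor1-2 and -0.56 in sgCtrl). Per1, a repressor of the clock, had 45.5 CPM in sgNcor1-1 2, 24.6 CPM in sgNcor1-2 2 and 38.7 CPM in sgCtrl 2, against 76.0 to 835 CPM (median 101), where 835 CPM was in sgNcor1-1 1. The difference was -2.07 (SE 0.67), or -1.42 without sgNcor1-1 1. Dbp, a transcription factor gene that the clock drives directly, had 30.0, 14.5 and 17.7 CPM against 46.1 to 177 CPM (median 70.3), a difference of -1.97 (SE 0.33) with no overlap. Per3 differed by -1.68 (SE 0.37), and Nr1d1, which encodes the repressor REV-ERB alpha that recruits NCOR1, by -1.55 (SE 0.50), or -1.05 without sgNcor1-1 1. The positive factor genes were not alike: Clock was separated downwards (-0.67, SE 0.15), and Arntl, which encodes BMAL1, was not separated (0.26, SE 0.19). Clock and Arntl were chosen after their values were seen.

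Of 20 genes of FOXO targets and quiescence, 8 were separated downwards (40.0%, against 19.1% of all genes tested) and 0 upwards. Their median was -0.49. Bcl6, a transcriptional repressor, had 5.89 CPM in sgNcor1-1 2, 7.15 CPM in sgNcor1-2 2 and 8.02 CPM in sgCtrl 2, against 11.9 to 45.1 CPM (median 18.7), a difference of -1.61 (SE 0.46). Cdkn1b, the cell cycle inhibitor p27, had 249, 144 and 266 CPM against 358 to 1036 CPM (median 427), a difference of -1.29 (SE 0.32), or -1.01 without sgNcor1-1 1. Both genes were below all 6 other libraries in every number 2 library. Klf6, a zinc finger factor, and Trib2, a pseudokinase, each differed by -1.08 (SE 0.36 and 0.31).

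Of 25 measured cholesterol genes of 27 listed, 12 were separated downwards (48.0%, against 19.1% of all genes tested) and 0 upwards. Their median was -0.52 (-0.75 in sgNcor1-1, -0.33 in sgNcor1-2 and -0.35 in sgCtrl). Stard4, which carries cholesterol between membranes, had 32.6 CPM in sgNcor1-1 2, 22.5 CPM in sgNcor1-2 2 and 35.0 CPM in sgCtrl 2, against 58.2 to 101 CPM (median 65.9), a difference of -1.28 (SE 0.19). Hmgcs1, an early enzyme of the pathway, had 69.6, 52.0 and 62.3 CPM against 94.7 to 267 CPM (median 129), a difference of -1.18 (SE 0.26). Fdft1, squalene synthase, differed by -1.09 (SE 0.15) and Msmo1, a sterol oxidase, by -0.72 (SE 0.26), or -0.43 without sgNcor1-1 2. The fatty acid list did not follow, with a median of -0.02. Of its 23 genes 3 were separated upwards (13.0%) and 6 downwards (26.1%), against 20.4% and 19.1% of all genes tested.

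Among 16 measured NF-kB targets and chemokines of 26 listed, 4 were separated downwards and 0 upwards, and 25.0% downwards is near the 19.1% of all genes tested. Their median of -0.54 depended on which library was set against them: it was -0.89 against number 1 alone, -0.09 against number 3 alone, -0.28 without sgNcor1-1 1, -0.31 without sgCtrl 1 and -0.87 without sgNcor1-2 2. Cxcl10, a chemokine that attracts T cells, had 34.0 CPM in sgNcor1-1 2, 36.8 CPM in sgNcor1-2 2 and 31.7 CPM in sgCtrl 2, against 91.8 to 389 CPM (median 113), a difference of -2.05 (SE 0.44). Nfkbia, the inhibitor that NF-kB induces, had 25.1, 17.6 and 25.4 CPM against 46.4 to 144 CPM (median 73.7), a difference of -1.84 (SE 0.36). The number 2 values of both genes lay below all 6 others. The noncanonical subunit genes Relb and Nfkb2 differed by -1.05 (SE 0.20) and -0.81 (SE 0.17).

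**Figure D5:**
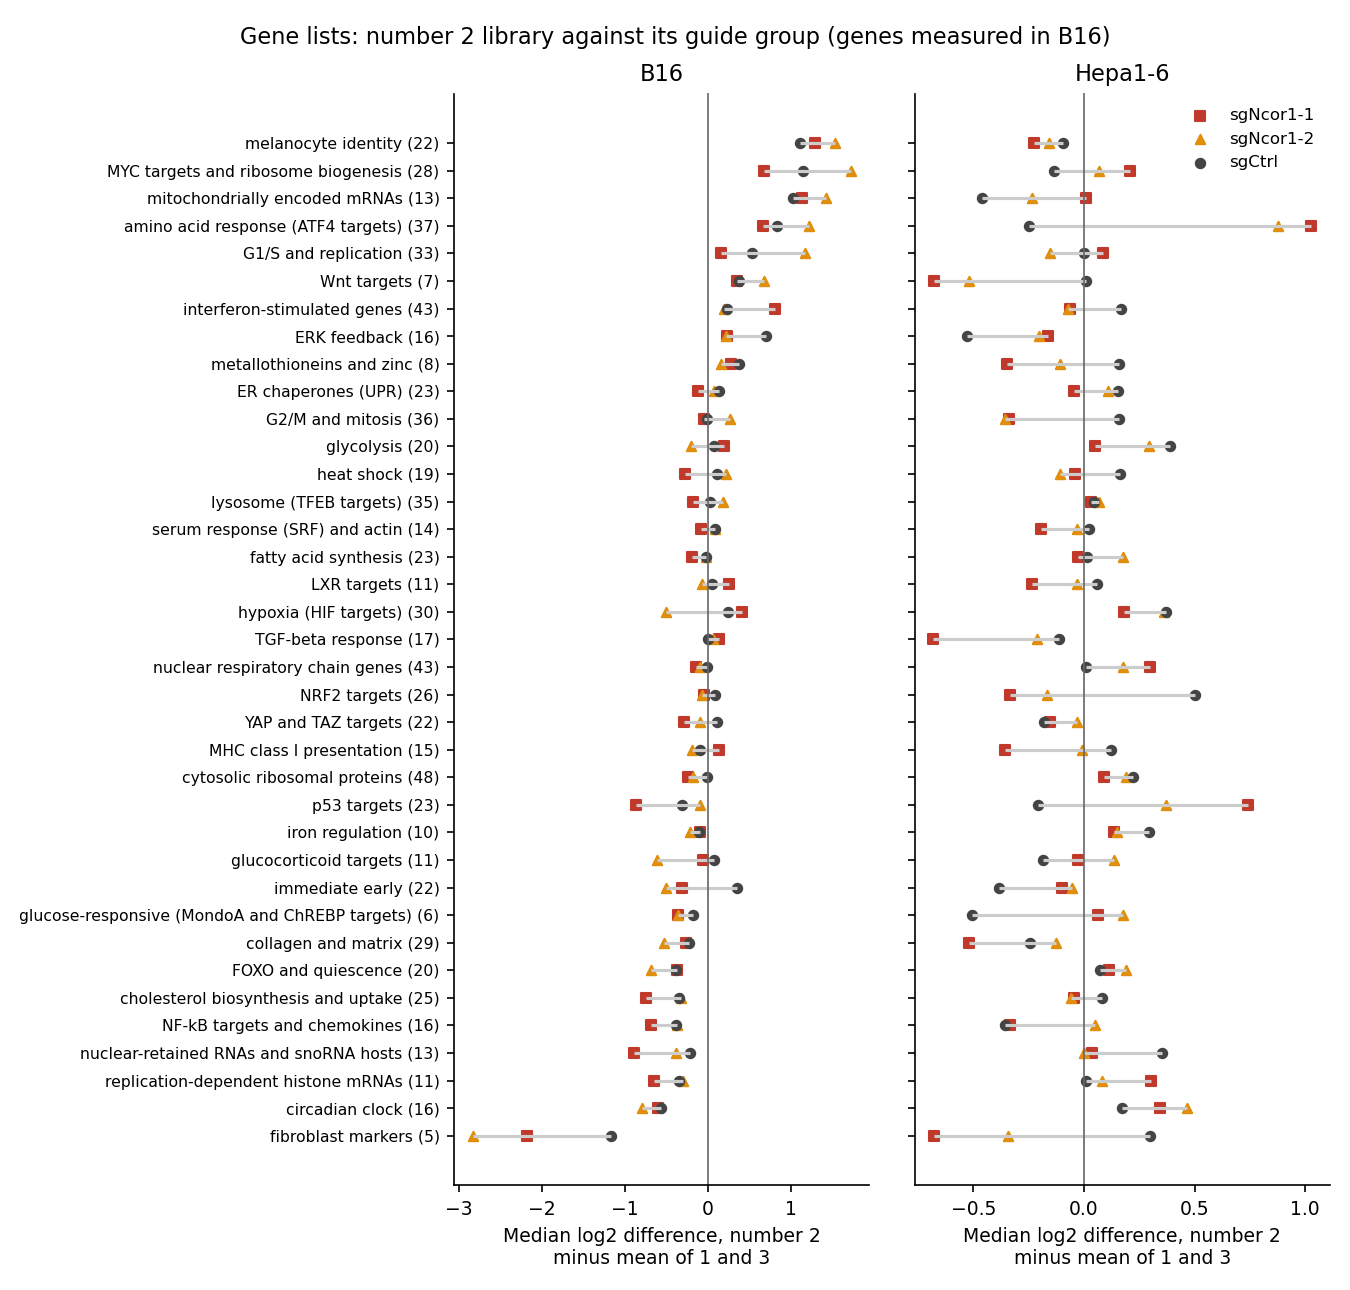
Median log2 difference of the number 2 library from the mean of 1 and 3 of its guide (x axis), for each gene list (rows, with the number of genes measured in B16), in B16 (left) and Hepa1-6 (right, with its own x scale). Each marker is 1 guide group. In B16 the 3 markers lie on the same side of 0 for the pigment cell, ribosome biogenesis, amino acid response and G1/S lists. They do so too for the Wnt, clock, quiescence, cholesterol and NF-kB lists. In Hepa1-6 the pigment cell, clock and quiescence lists lie on the other side, and the pigment cell markers there are the values of Mlph.

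Outside the lists, the largest higher genes beside those already named were Tspan10, a tetraspanin known from pigmented eye tissue, Igsf3, Hcar1, Gemin4, Shc4, Spsb4 and Cd3eap. Tspan10 had 188 CPM in sgNcor1-1 2, 278 CPM in sgNcor1-2 2 and 165 CPM in sgCtrl 2, against 12.2 to 30.1 CPM (median 27.5) in numbers 1 and 3, a difference of 3.07 (SE 0.22). Hcar1, the lactate receptor, had 17.9, 10.9 and 13.3 CPM against 0.24 to 4.24 CPM (median 2.93). Shc4, an adaptor of receptor tyrosine kinases, had 26.8, 36.5 and 53.7 CPM against 2.58 to 13.8 CPM (median 10.1). The groups did not overlap in any of these 3 genes. Cd3eap, a subunit of RNA polymerase I, differed by 2.08 (SE 0.25), Gemin4, of the complex that assembles spliceosomal particles, by 2.16 (SE 0.45), Spsb4, of a ubiquitin ligase family, by 2.09 (SE 0.73) and Igsf3, an immunoglobulin superfamily gene, by 2.73 (SE 0.74).

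On the lower side S100a6 and S100a4, neighbouring genes for small calcium-binding proteins, had the largest differences but were uneven. S100a6 had 4.15 CPM in sgNcor1-1 2, 2.95 CPM in sgNcor1-2 2 and 17.5 CPM in sgCtrl 2, against 14.7 to 221 CPM (median 52.7), a difference of -3.35 (SE 1.14), or -2.48 without sgNcor1-1 1. The sgCtrl 2 value lay inside the range of the others. Kitl, the ligand of the receptor KIT on pigment cells, had 1.44, 0.44 and 6.69 CPM against 1.72 to 38.2 CPM (median 6.58), also with overlap, a difference of -2.16 (SE 0.64). Slco5a1, an organic anion transporter family gene, had 13.7, 7.05 and 8.62 CPM against 25.6 to 62.7 CPM (median 50.4), a difference of -2.25 (SE 0.41). Kifc2, a kinesin gene, had 2.83, 1.91 and 2.35 CPM against 6.92 to 13.5 CPM (median 10.8), a difference of -2.19 (SE 0.25). In Slco5a1 and Kifc2 the groups did not overlap. The remaining lower genes were Hrc, a calcium-binding protein gene (-2.73, SE 0.58), Plekhg6 (-2.53, SE 0.69), the membrane metalloproteinase gene Mmp17 (-2.38, SE 0.52), Frat2, whose product binds the kinase GSK3 (-2.22, SE 0.53), and the phosphatase gene Ppm1j (-2.17, SE 0.63).

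Transcript composition parted the separated genes slightly. The median GC content of the longest transcript was 51.7% in genes separated upwards, 47.8% in those separated downwards and 49.7% in the rest. The median length of that transcript was 3344 bases in genes separated upwards, 3687 bases in those separated downwards and 3354 bases in the rest. Across 12111 genes with a transcript in the reference, Spearman's rho of the log2 difference was 0.16 with GC content and -0.04 with length. Genes share libraries here, so these are descriptions.

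Some markers of other cells and of RNA state moved with the number. Summed fibroblast markers came to 37.1 to 46.4 CPM in number 2, against 71.0 to 99.7 CPM (median 82.5) in numbers 1 and 3, without overlap. Of 10 such markers 5 were measured and 3 were separated downwards (60%, against 19.1% of all genes tested). These were Col1a1 (-2.28, SE 0.35), S100a4 and Dcn, which had 0.12, 0 and 1.08 CPM in number 2. Dcn was also low in sgNcor1-1 3 (0.16 CPM) and sgNcor1-2 3 (0.11 CPM). It had 2.88 CPM in sgCtrl 3 and 3.87 to 4.79 CPM in number 1. Pdgfrb (-0.62, SE 0.53) and Pdgfra (-0.77, SE 0.39), the most abundant measured members in number 2, were not separated. The fibroblast list median was -2.28, or -1.35 against number 3 alone. Immune markers summed to 0.30 to 1.42 CPM in number 2, against 0.94 to 4.51 CPM, and Ptprc, Cd3e, Ms4a1, Adgre1, Itgam, Tyrobp and Nkg7 were at 0 in all 9 B16 libraries. Endothelial markers summed to 8.84 to 14.7 CPM against 8.03 to 16.9 CPM, with Cdh5, Kdr, Emcn, Erg and Cldn5 at 0. Epithelial markers summed to 0.84 to 2.67 CPM against 0.27 to 1.13 CPM. Hepatocyte markers summed to 113 to 150 CPM in number 2 and 88.9 to 117 CPM in numbers 1 and 3, with Alb, Afp, Apoc3, Serpina1a, Fgb, Foxa2 and Rbp4 at 0.

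Of 13 mRNAs encoded by mitochondrial DNA, 8 were separated upwards (61.5%, against 20.4% of all genes tested) and 0 downwards. Their median was 1.17, and their sum was 20287 to 26876 CPM in number 2, against 12594 to 18227 CPM (median 15910). CYTB had 1146 CPM in sgNcor1-1 2, 2497 CPM in sgNcor1-2 2 and 1634 CPM in sgCtrl 2, against 148 to 699 CPM (median 165), a difference of 2.58 (SE 0.47). ND3, ND4L and ND2, subunit genes of complex I, differed by 2.04 (SE 0.82), 1.65 (SE 0.94) and 1.32 (SE 0.31). The nuclear genome holds copies of mitochondrial sequence, and shared reads were split between genes, so single mitochondrial values are uncertain. The list of nuclear-retained RNAs and snoRNA (small nucleolar RNA) hosts summed to 337 to 417 CPM in number 2. Numbers 1 and 3 had 632 to 1612 CPM (median 745), with no overlap. Of 13 measured members, 4 were separated downwards (30.8%, against 19.1% of all genes tested) and 0 upwards. Malat1 and Neat1 were the most abundant of these, at 174 and 90.9 CPM in sgCtrl 2. Malat1 differed by -1.42 (SE 0.40), Neat1 by -1.21 (SE 0.27), Kcnq1ot1 by -0.87 (SE 0.32) and the snoRNA host Gas5 by -0.48 (SE 0.30). Gas5 was at -0.21 without sgNcor1-1 1 and at -0.22 without sgNcor1-1 2. The median of the list was -0.57, with -0.21 without sgNcor1-1 1 and -0.22 without sgNcor1-1 2. Replication-dependent histone mRNAs, which lack poly-A tails, had 1 of 11 measured genes separated downwards (9.09%, against 19.1% of all genes tested). This was H2bc21 at -1.21 (SE 0.21). The histone median of -0.61 turned to 0.34 against number 3 alone and to 0.07 with no filter on low counts. It was -0.12 without sgNcor1-1 1, -0.13 without sgNcor1-1 2 and -0.39 without sgNcor1-2 1. The part of these markers and RNA classes in the gene group differences was not tested. In bulk RNA, fewer cells of a type and less RNA per cell cannot be told apart.

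In knockout against control cells, the size of the number 2 difference could be tested. The interaction compared the mean difference in sgNcor1-1 and sgNcor1-2 with that in sgCtrl. edgeR's quasi-likelihood test called 0 of 12347 genes (0%), and 25 genes had an unadjusted p under 0.05 (0.202%). Evenly spread p-values would put a share of 0.05 there, far more than was seen, so the test was strict. Its fit left the difference of numbers 1 and 3 in the spread it tested against, and the 0 calls carry little weight. The count of 25 was 69 with the number as a block and lay between 9 without sgNcor1-2 1 and 537 without sgNcor1-1 3 when 1 library was left out, and 0 genes were called in each. DESeq2 called 0, with 21 genes at an unadjusted p under 0.05. A p that misses the threshold does not show that the difference was of the same size. The 3 named genes with the smallest p in each direction were Xntrpc, Scml2 and Pbxip1 above 0 and Rpl27-ps3, Crtam and Rsc1a1 below it. Of these 6, Rpl27-ps3 and Pbxip1 averaged over 5 CPM in B16, and the others lay at 0.46 to 2.74 CPM. Pbxip1 did so through sgCtrl alone, at 22.4 to 42.6 CPM. It was at 0.08 to 0.78 CPM in the libraries of both Ncor1 guides, so its interaction rests on values near 0. Rpl27-ps3, a ribosomal protein pseudogene that shares reads with its parent gene, had 29.4 CPM in sgNcor1-1 2, 6.28 CPM in sgNcor1-2 2 and 36.4 CPM in sgCtrl 2 (interaction -1.68, SE 0.37, not called after adjustment). The levels listed above did differ in order between guides, with sgNcor1-2 2 the most displaced in ribosome biogenesis and G1/S genes and sgNcor1-1 2 the least, but whether these 2 guides differ in size was not tested.

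In Hepa1-6, whose libraries carry the same numbers and which the choice of number 2 did not use, no gene passed the test. edgeR's quasi-likelihood test of number 2 against 1 and 3 called 0 of 12458 genes (0%), with 359 at an unadjusted p under 0.05 (2.88%), and DESeq2 called 1, with 639 at an unadjusted p under 0.05. The number of genes at an unadjusted p under 0.05 was 2361 (19%) with the number as a block, in which 0 genes were called too. It lay between 29 without sgNcor1-1 2 and 887 without sgCtrl 2 when 1 library was left out. There 359 genes were separated upwards (2.88%) and 533 downwards (4.28%). Of the 4394 genes separated in B16 and tested in Hepa1-6, 109 were separated the same way there (2.48%) and 196 the opposite way (4.46%). The number 2 profiles of the Hepa1-6 guide groups correlated at 0.05 between sgNcor1-1 and sgCtrl, 0.19 between sgNcor1-2 and sgCtrl and 0.67 between both Ncor1 guides, so that number 2 did not mark 1 shared profile in all 3 groups of that line.

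The smallest p in Hepa1-6 was that of Egr1, an immediate early gene, with 46.8 CPM in sgNcor1-1 2, 59.1 CPM in sgNcor1-2 2 and 67.7 CPM in sgCtrl 2, against 93.8 to 254 CPM (median 134) in numbers 1 and 3. Its log2 difference was -1.33 (SE 0.27, adjusted p = 0.890 by edgeR), lower in 3 of 3 guide groups. Klf2, a zinc finger factor, was next (-0.72, SE 0.17), with the same adjusted p. The list medians in Hepa1-6 were -0.16 for pigment cell genes, -0.02 for ribosome biogenesis, 0.48 for the amino acid response, -0.08 for G1/S, 0.29 for the clock, 0.10 for quiescence, -0.08 for cholesterol and -0.29 for NF-kB. The amino acid response was uneven there, at 1.03 in sgNcor1-1, 0.88 in sgNcor1-2 and -0.25 in sgCtrl. With 7 pigment cell genes measured there, the median of that list was the value of Mlph.

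In that line the deviations of same-numbered libraries from their guide means correlated at 0.59 to 0.91 for number 1, 0.34 to 0.75 for number 3 and 0.05 to 0.67 for number 2. The Hepa1-6 medians of number 1 against 2 and 3 were -0.62 for the clock, -0.49 for quiescence, 0.54 for G1/S and 0.25 for ribosome biogenesis. These are the same signs as those of number 2 in B16. The medians were -0.66 for the amino acid response and 0.72 for NF-kB, the opposite signs, and -0.02 for cholesterol. The pigment cell median of 0.16 was the value of Trpm1, at 0.70 to 2.17 CPM in Hepa1-6, and nothing is read from its sign. Across 10878 genes Spearman's rho with the B16 number 2 difference was 0.21 for Hepa1-6 number 1 and -0.13 for Hepa1-6 number 2, and genes are not independent replicates. Number 1 was looked at in this line after its values were seen, and no test of it is given.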

How the data were processed

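Polyadenylated RNA of 18 libraries was sequenced. The submitters' processing notes name Bowtie2 2.2.5 and RSEM 1.2.8 with the build mm10, and Trim Galore 0.6.7 and FastQC 0.12.1 for the reads. Expected counts were taken from the deposited tables, 1 for each line, which hold 32015 gene symbols. In B16, 7.19% of values were not whole, because RSEM splits reads shared by several genes, so near-identical genes are uncertain. Strand and gene annotation are not given in the sources used here, so antisense partners cannot be told apart.

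Counts were rounded, filtered by edgeR's default (12347 genes in B16, 12458 in Hepa1-6), given TMM scaling factors and fitted with edgeR 4.0.16 in R 4.3.3 (quasi-likelihood, robust), with guide group as a covariate and all 9 libraries of a line sharing 1 spread. P-values were adjusted over all genes tested by the Benjamini-Hochberg method, with a threshold of 0.05. Separated genes were counted on log2 CPM (prior count 2), and ties within 1e-06 were not counted. Fits were tested on simulated data.

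The members, the 42 gene lists and the tests were chosen with earlier results of these data known. Genes named are up to 12 each way with the largest difference among separated genes of at least 5 CPM on average, up to 4 separated members of each described list, and 3 each way with the smallest p in the interaction and Hepa1-6 tests. Lists described are the 8 programmes with the largest medians among those with at least 5 measured genes, and the identity, other cell and RNA state lists. Promoters follow the list with the largest separated share; those of the pigment cell and amino acid lists were added after seeing the data.

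Same-numbered B16 libraries deviated from their guide means together (9 correlations, 0.50 to 0.74), so the numbers were taken to pair libraries in B16; in Hepa1-6 they ranged from 0.05 to 0.91. The pairing comes from the data and not from the labels. No 2 libraries were alike within sampling noise (lowest chi-square per degree of freedom 6.36 in B16 and 10.97 in Hepa1-6). Alternatives were DESeq2 1.42.0 and its size factors, no filter on low counts, the number as a block, and leaving out each library.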

Additional observations from a re-analysis of the deposited data

Results flagged for a closer look

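Values of opposite sign in the lines are given first for B16 and then for Hepa1-6, as log2 differences of number 2 from 1 and 3. In each, all 3 guide groups of B16 lay on one side of 0 and all 3 of Hepa1-6 on the other; the difference between the lines was not tested. Among lists, the pigment cell median was 1.33 and -0.16, the clock median -0.66 and 0.29, the median of FOXO targets and quiescence -0.49 and 0.10, and the histone median -0.61 and -0.02. For histones the fitted Hepa1-6 median was below 0 although its 3 guide medians were above it. Pigment cell genes are low in Hepa1-6, where 7 of the 24 passed the filter. The Hepa1-6 median of that list is the value of Mlph, so the list and this gene are 1 result. The other measured members had -1.01 (Pmel and Pax3), -0.80 (Mitf), -0.07 (Gpnmb), 0.42 (Rab27a) and 0.46 (Trpm1) in Hepa1-6. Among genes, Mlph stood at 2.68 and -0.16, Gemin4 at 2.16 and -0.70, Cd3eap at 2.08 and -0.42, Igsf3 at 2.73 and -1.10, Plekhg6 at -2.53 and 0.37 and Per1 at -2.07 and 0.56. None of the Hepa1-6 values passed edgeR's test after adjustment, with 359 genes at an unadjusted p under 0.05, or 2361 with the number as a block, and 1 gene called by DESeq2. Number 1 against 2 and 3 in Hepa1-6 had a clock median of -0.62 and a quiescence median of -0.49, the signs of number 2 in B16. Its pigment cell median of 0.16 was the value of Trpm1, at 0.70 to 2.17 CPM in Hepa1-6, and nothing is read from its sign.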

How the results depend on the processing

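With the replicate block, in which the number has 3 levels and so takes up the difference of 1 and 3, the description of number 2 against 1 and 3 in B16 came to 3277 genes in place of 1370. The pairing changed no other call: the interaction and the Hepa1-6 test stayed at 0 genes with it, although the genes at an unadjusted p under 0.05 numbered 69 in place of 25 for the interaction and 2361 in place of 359 in Hepa1-6. DESeq2 gave 2689 genes for number 2, 1908 in place of 956 for number 1 against 3, and 1 in Hepa1-6. Number 2 against 3 alone gave 4541 genes and number 2 against 1 alone 1886, both added after seeing the data. Leaving out 1 library at a time gave 0 to 3025 genes for number 2 and 8 to 1500 for 1 against 3, and leaving out the 3 number 2 libraries gave 66 for 1 against 3. Without a number 2 library the interaction was not fitted. The cause of these moves was not tested.

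List medians and gene values were judged by another rule than the counts. One moved where it shifted by at least its spread, the standard deviation of its 3 guide group values. Of 65 medians under settings other than leaving out 1 library, 52 stayed within their spread, 11 moved and 2 reversed. The reversals were the histone mRNAs, at 0.071 with no filter and 0.34 against number 3 alone; against number 1 alone they were at -0.93. Against number 1 alone, Wnt targets were at 0.81, NF-kB targets at -0.89 and pigment cell genes at 1.07. Against number 3 alone, pigment cell genes were at 1.57, mitochondrial mRNAs at 1.42, Wnt targets at 0.14 and NF-kB targets at -0.085. Also against number 3 alone, FOXO and quiescence was at -0.31, fibroblast markers at -1.35 and nuclear-retained RNAs with snoRNA hosts at -0.18. Leaving out 1 library gave -0.87 to -0.28 for NF-kB targets and 1.00 to 1.38 for mitochondrial mRNAs. It gave -0.84 to -0.12 for histones and -0.84 to -0.21 for nuclear-retained RNAs with snoRNA hosts. Of 320 values of the 64 named genes that were separated, again without the single omissions, 284 stayed within their spread, 36 moved and 0 reversed.

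Depth overlapped between the numbers. With 1 number 2 library per guide, the spread within a guide group cannot be split into culture and library preparation.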

Other observations

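Several gene groups outside those described also differed between number 2 and its guide groups; they were chosen after their values were seen. Of 43 measured interferon-stimulated genes 16 were separated upwards (37.2%, against 20.4% of all genes tested) and 0 downwards, with a median of 0.36, and the median was largest in sgNcor1-1 (0.81, against 0.20 in sgNcor1-2 and 0.23 in sgCtrl). Isg15, a ubiquitin-like modifier, had 87.3 CPM in sgNcor1-1 2, 120 CPM in sgNcor1-2 2 and 76.0 CPM in sgCtrl 2, against 28.1 to 55.9 CPM (median 38.8) in numbers 1 and 3. Of 29 collagen and matrix genes 10 were separated downwards (34.5%, against 19.1% of all genes tested) and 1 upwards, with a median of -0.38, among them Col4a1 (-0.96, SE 0.22) and Col5a1 (-1.10, SE 0.16). Txnip, an inhibitor of thioredoxin and of glucose uptake, had 332, 161 and 224 CPM in number 2, against 736 to 1567 CPM (median 881), a difference of -2.05 (SE 0.27) with no overlap.

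Genes on chromosome X had a median log2 difference of -0.37 over 369 genes, with 6.23% separated upwards and 22.8% downwards, while autosomes had medians between -0.13 and 0.07. Against number 1 alone the X median was -0.65, and against number 3 alone it was -0.05, so the X difference stood between number 1 and the rest. In number 1 minus 3 the X median was 0.69 in sgNcor1-1, 0.68 in sgNcor1-2 and 0.58 in sgCtrl, against -0.05, -0.01 and -0.04 for autosomal genes. edgeR called 147 of the 369 X genes higher in number 1 (39.8%), against 4.51% of all genes. DNA was not measured.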
